A study of Mus musculus with 3 samples.

Results

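Interferon regulatory factors are a family of DNA-binding proteins, and 8 of their genes (Irf1, Irf2, Irf3, Irf4, Irf5, Irf7, Irf8 and Irf9) are described here out of 19938 genes measured. They were chosen by gene symbol, from probe sets that name 1 gene in the platform annotation. The probe set with the highest mean stood for the gene. Irf1 had 2 such probe sets and the other members had 1 each.

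RNA was profiled in bone marrow-derived dendritic cells (BMDC), dendritic cells grown from the marrow of C57BL/6J mice. All samples carried the same treatment: 2000000 marrow cells per well were cultured for 9 days with murine GM-CSF and murine IL-4, each at 20 ng/ml. GM-CSF is a growth factor of myeloid cells, and IL-4 directs the cultured precursors toward dendritic cells. The 3 arrays form 1 group with no contrast, genotype or untreated control, so no test between groups was possible. The labels do not tell whether the replicates came from separate mice or cultures, and each SD given may be technical. The number of arrays limits the precision. Values are log2 expression, made by the authors with RMA. Of 8 defining genes of the labelled cell type, 7 lay above the background limit explained below in every array, against 60.5% of all genes. Among them was Itgax, which encodes CD11c, at 11.91 ± 0.0017 (SD, n = 3), with replicates 1 and 3 equal. The exception, named after its values were seen, was Flt3, the receptor gene of a dendritic cell growth factor. It lay below the limit at 5.47, 5.47 and 5.24 in replicates 1, 2 and 3. A stricter limit, also explained below, left 6 of the 8, against 39.5% of all genes. The further gene lost was Zbtb46, at 6.36 in each array.

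The family shares an N-terminal DNA-binding domain that reads GAAA repeats, as found in the interferon-stimulated response element (ISRE). Irf3, Irf5 and Irf7 wait in the cytoplasm and are activated by phosphorylation below microbial sensors. Irf9 is the DNA-binding part of the complex ISGF3, which carries the signal of type I interferon. Irf1 is induced by interferon-gamma, and Irf2 competes with it for DNA. Irf4 and Irf8 bind DNA weakly alone and pair with PU.1 (encoded by Spi1) or with Batf-Jun dimers. In dendritic cells Irf8 is known for the type 1 conventional subset, and Irf4 for type 2 and monocyte-derived cells.

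The promoters of 4 members are shown because Irf1, Irf4 and Irf8 had the widest spread between arrays of the 8 and shared their lowest and highest arrays, whereas Irf2 had identical values. Each run holds the 250 bases before the most upstream start in the RefSeq table (build GRCm38.p6), in the direction of the gene, and capitals mark motif matches.
Irf1, chr11:53769764-53770013, + strand: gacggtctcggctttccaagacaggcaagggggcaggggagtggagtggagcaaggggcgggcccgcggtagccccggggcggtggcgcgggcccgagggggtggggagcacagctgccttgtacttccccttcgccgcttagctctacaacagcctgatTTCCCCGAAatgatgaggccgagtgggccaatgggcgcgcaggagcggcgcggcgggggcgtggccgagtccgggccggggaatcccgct
Irf8, chr8:120736108-120736357, + strand: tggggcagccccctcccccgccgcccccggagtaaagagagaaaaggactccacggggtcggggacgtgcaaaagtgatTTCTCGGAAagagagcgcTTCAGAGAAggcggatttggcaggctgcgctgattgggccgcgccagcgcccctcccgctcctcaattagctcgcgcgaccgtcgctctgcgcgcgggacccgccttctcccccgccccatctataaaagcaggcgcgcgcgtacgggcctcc
Irf4, chr13:30748983-30749232, + strand: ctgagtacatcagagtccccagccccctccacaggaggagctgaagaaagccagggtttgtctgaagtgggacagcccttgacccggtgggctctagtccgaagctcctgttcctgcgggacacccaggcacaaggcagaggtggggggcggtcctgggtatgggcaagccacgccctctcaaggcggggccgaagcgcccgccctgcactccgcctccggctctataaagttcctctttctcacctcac
Irf2, chr8:46739495-46739744, + strand: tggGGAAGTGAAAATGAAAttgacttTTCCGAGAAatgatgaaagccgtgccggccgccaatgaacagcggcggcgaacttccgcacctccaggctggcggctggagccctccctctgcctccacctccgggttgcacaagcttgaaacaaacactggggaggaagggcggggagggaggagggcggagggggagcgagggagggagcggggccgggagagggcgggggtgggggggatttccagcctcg

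The search took 4 motifs on both strands of 11 promoters of the 8 members (Irf1, Irf8 and Irf9 have 2 starts each). They were the ISRE core, GAAA and GAAA with any 2 bases between, and the composite element of PU.1 with Irf4 or Irf8 (EICE), GGAA and GAAA with any 2 bases between. The others were the gamma-activated site (GAS), TTC and GAA with any 3 bases between, and the STAT6 form, TTC and GAA with any 4 bases between, which both read the same on either strand. The Irf1 promoter held 1 GAS match, TTCCCCGAA, at 90 to 82 bases before the start. The Irf8 promoter held 2 GAS matches, TTCTCGGAA at 171 to 163 and TTCAGAGAA at 153 to 145 bases before the start. The Irf2 promoter held a GAS match, TTCCGAGAA, and an ISRE match, GAAAATGAAA, that overlaps an EICE match, GGAAGTGAAA. No match was found in the windows of Irf3, Irf4, Irf5, Irf7 and Irf9, and no STAT6 match in any of the 11. Of 32851 promoter windows in the table, 7.02% held the GAS letters, 2.98% the ISRE, 2.3% the EICE and 5.85% the STAT6 form. A match describes letters and is no evidence of binding.

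All 8 members were above background in every array, against 60.5% of all genes. The limit was the 95th percentile of 1210 olfactory and vomeronasal receptor probe sets in the same array (5.54, 5.54 and 5.55 log2 units). With the 99th percentile all 8 remained above it, against 46.2% of all genes. A stricter limit from 36 genes of other tissues (6.77, 6.75 and 6.75) left 7 of the 8, against 39.5% of all genes, and the member lost was Irf7. Under the first limit 14 of those 36 tissue genes also passed, so a call near it is weak. Probe sets differ in binding strength, and the levels of the members are therefore not ranked against each other.

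**Figure D1:**
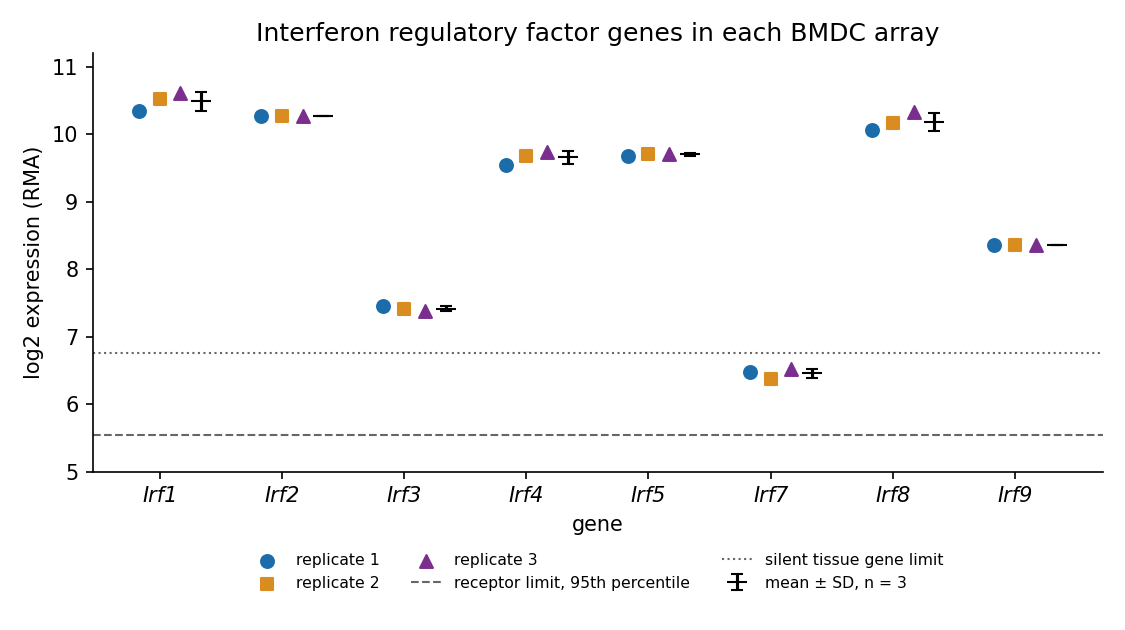
Log2 expression (vertical axis) of the 8 genes (horizontal axis) in replicates 1, 2 and 3 of BMDC, with the mean ± SD (n = 3) to the right of the points. The dashed line is the mean receptor limit and the dotted line the mean silent tissue gene limit, from genes of other tissues. Irf7, at 6.38 to 6.52, is the gene between the lines.

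Among the factors that act below microbial sensors, Irf3, the kinase-activated inducer of interferon-beta, had 7.46, 7.41 and 7.39 in replicates 1, 2 and 3 (7.42 ± 0.035, SD, n = 3). The arrays lay within 0.07 log2 units. Irf5, which acts below Myd88 on inflammatory cytokine genes, had 9.67, 9.71 and 9.71 (9.70 ± 0.02, SD, n = 3), with replicates 2 and 3 equal. Irf7, itself induced by interferon and needed for the broad type I interferon response, had 6.47, 6.38 and 6.52 (6.46 ± 0.07, SD, n = 3). It was lowest in replicate 2, and its lowest value exceeded the receptor limit by 0.84.

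Irf9, the DNA-binding part of ISGF3, had 8.36 in each array. Irf2, the competitor of Irf1, had 10.27 in each. These values were identical in every deposited digit, as in 46.5% of the 12068 genes above background, so their SD of 0 says nothing on how precisely they were measured.

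Irf1, the factor induced by interferon-gamma, had 10.33, 10.52 and 10.61 in replicates 1, 2 and 3 (10.49 ± 0.14, SD, n = 3). Replicate 1 was the lowest and replicate 3 the highest, 0.27 log2 units or 1.21-fold apart. The other probe set of Irf1, which is assigned to a single accession, had 5.88 in each array. The 2 probe sets thus disagree on both level and spread, and the first is assigned to 8 accessions, RefSeq transcripts among them.

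Irf8, the factor of the type 1 conventional subset and of monocytes, had 10.06, 10.17 and 10.33 (10.18 ± 0.13, SD, n = 3). Its lowest array was again replicate 1 and its highest replicate 3, 0.27 log2 units or 1.20-fold apart. Irf4, which is induced by IL-4 in several cell types, had 9.55, 9.67 and 9.74 (9.65 ± 0.10, SD, n = 3). The same arrays were lowest and highest, 0.19 log2 units or 1.14-fold apart.

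Irf1 and Irf8 were the 2 members spanning more than 0.25 log2 units between their lowest and highest arrays. Such a span was found in 8.49% of the genes above background. Over 0.1 there were 4 members, against 24.2% of those genes, and over 0.5 there were 0, against 2.61%. Irf1 and Irf8 both lay just inside the 0.25 threshold (0.27 each), and Irf4 lay outside it (0.19). The median span was 0.10 over the 8 members and 0.0096 over all genes above background, or 0.17 over the 6 members and 0.087 over the 6456 genes whose values differed between arrays. Both calls rest on the difference between replicates 1 and 3: without either array 0 members passed the threshold, and without replicate 2 both did.

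**Figure D2:**
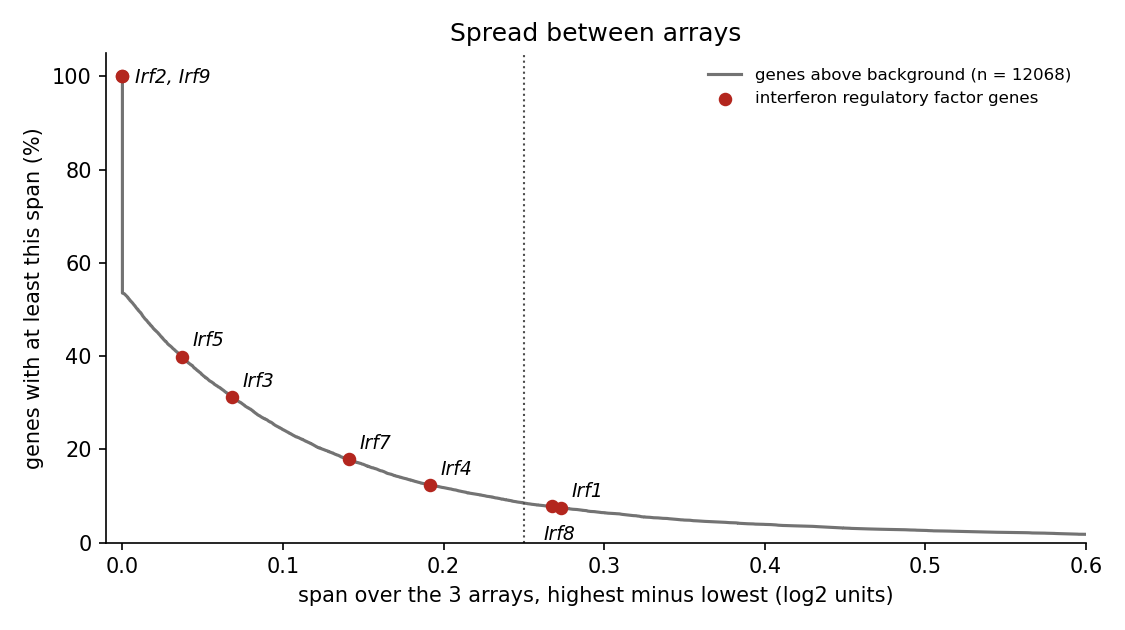
The curve gives the percentage of the 12068 genes above background (vertical axis) that reach at least a given span over the 3 arrays in log2 units (horizontal axis), and the points are the 8 members. Irf1 and Irf8 lie right of the dotted threshold at 0.25, and the step at 0 holds the genes with identical values, Irf2 and Irf9 among them.

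The members that differed between arrays did not share 1 lowest array. Of 6 such members, 4 were lowest in replicate 1 alone (Irf1, Irf4, Irf8 and, by 0.04 log2 units, Irf5), against 24.5% of the 6456 genes above background that differed. One member, Irf3, was lowest in replicate 3 alone, against 37.8% of those genes, and Irf7 was lowest in replicate 2 alone, against 9.12%. Irf1, Irf4 and Irf8 were both lowest in replicate 1 and highest in replicate 3, as were 15.4% of the differing genes. The reverse order, lowest in replicate 3 and highest in replicate 1, was that of Irf3 and of 19.1% of the differing genes. Both members spanning over 0.25, Irf1 and Irf8, were lowest in replicate 1 and highest in replicate 3, as were 27.5% of the genes above background with such a span, whereas 54.4% of those genes had the reverse. These are counts of 6 genes on the same 3 arrays and no test was made. The count for replicate 1 also depends on the scaling: with the medians of the genes above background made equal, 6 of the 8 members were lowest there, against 72.8% of those genes.

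**Figure D3:**
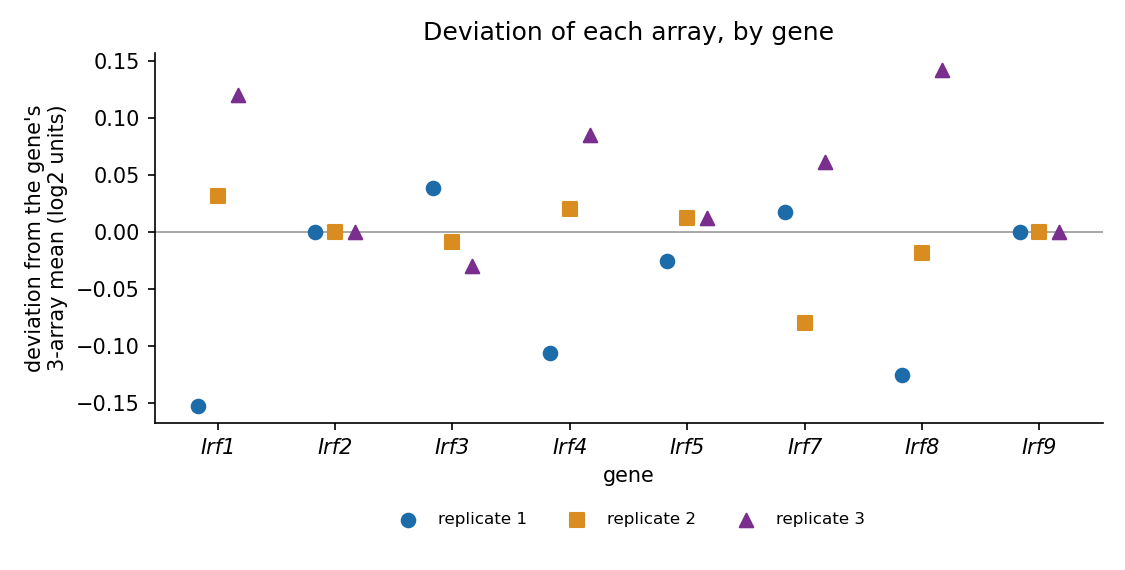
Deviation of each array from the gene's own 3-array mean in log2 units (vertical axis) for the 8 genes (horizontal axis). Irf1, Irf4 and Irf8 are below 0 in replicate 1 and above it in replicate 3, Irf3 is the other way, and Irf2 and Irf9 lie at 0.

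Irf1, Irf4 and Irf8 were grouped by their shared lowest and highest arrays, so some likeness of their deviations follows from that choice. The largest difference between deviations in any array was 0.047 for Irf1 and Irf4, 0.049 for Irf1 and Irf8 and 0.057 for Irf4 and Irf8. The corresponding value for Irf1 and Irf3 was 0.19, the largest of all pairs of members. Pairs of members that varied little were closer, with 0.025 for Irf2 and Irf5 and 0.0385 for Irf2 and Irf3. Of 3025 other genes above background with 3 different values, 125 (4.13%) lay within 0.05 of Irf1, 256 (8.46%) within 0.05 of Irf8 and 290 (9.59%) within 0.05 of Irf4. The 3 closest genes were Ift172, Prelid2 and Cib1 for Irf1 (0.0075 to 0.012), Braf, Snora31 and Ldha for Irf8 (0.0047 to 0.0052) and Uhmk1, Bcl2l1 and Foxred1 for Irf4 (0.0014 to 0.0032). For Irf3 they were Caprin1, Etfa and Krtap3-1 (0.0008 to 0.0036), and for Irf7 Mab21l2, Tmem19 and Ltv1 (0.0087 to 0.012).

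Genes of T cells, NK cells and dividing cells were lowest in replicate 3, the array in which Irf1, Irf4 and Irf8 were highest. The mean level over 6 T cell genes was 7.51, 7.25 and 6.90 in replicates 1, 2 and 3, over 8 NK cell genes 7.02, 6.87 and 6.49, and over 9 cell cycle genes 7.996, 7.69 and 7.10. Replicate 3 was the lowest in 5 of the 6 T cell genes, in 5 of the 5 NK cell genes above background and in 9 of the 9 cell cycle genes. The stricter limit left 2 of the 6 T cell genes, 3 of the 8 NK cell genes and 7 of the 9 cell cycle genes. The share over all genes was 39.5%. The 2 T cell genes were Cd3e (9.09, 8.79 and 8.15) and Cd3g (8.655, 8.22 and 7.44). Of all differing genes above background 37.8% were lowest there. Among genes above background spanning over 0.25 log2 units, 54.4% were lowest in replicate 3 and highest in replicate 1. The killer cell protease gene Gzma had 10.89, 10.42 and 9.68, and Gzmb 10.89, 10.56 and 9.69. The NK cell receptor genes were split. Klrb1c was above background at 6.51, 6.45 and 5.94, lowest in replicate 3, but did not pass the stricter limit. Ncr1 (4.23), Klrd1 (4.89) and Klre1 (3.39) were below background, with equal values in the arrays. Macrophage genes had 10.005, 9.91 and 9.85, with 7 of 7 above background, against 60.5% of all genes. B cells and plasma cells, which also express members of the family such as Irf4, had 2 of 7 genes above background, against the same 60.5%. These were Cd79b at 6.41, 6.40 and 6.23 and Pax5 at 5.64 in each array, and neither passed the stricter limit. The mean level of the 7 was 4.89, 4.84 and 4.77. Of the plasmacytoid genes, whose cells hold high Irf7 and Irf8, 3 of 7 were above background, again against 60.5%. The mean of the 7 was 6.38, 6.37 and 6.31. Bst2 (8.50 in each array) and Tcf4 (8.26, 8.29 and 8.34), which other cells also express, were above background, and Siglech (5.36) and Ccr9 (5.20) were below. The part of a changing cell mixture in the values of Irf1, Irf4 and Irf8 was not tested. In such bulk samples fewer cells of a type and less RNA per cell cannot be told apart.

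Upstream of the family, interferon genes were measured in 8 cases, of which 4 were above background, against 60.5% of all genes. The stricter limit left 2 of the 8, Ifng and Ifnl2, against 39.5% of all genes. Ifnb1, the target of Irf3, lay below it at 3.58 in each array, as did Ifna4 at 4.01. Ifng, the inducer of Irf1, had 8.10, 7.59 and 7.08 in replicates 1, 2 and 3. It was lowest in the array in which Irf1 was highest. Ifnl2 had 7.48, 7.08 and 6.82, with the same array lowest. Ifna2 (5.54, 5.54 and 5.59) lay at the first limit. Ifna5, named after its values were seen, had 6.67 in each array, below the stricter limit.

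Interferon receptor and signalling genes were above background in 10 of 10 cases, against 60.5% of all genes. None of the 10 spanned over 0.25 log2 units, a span that 8.49% of genes above background had. Ifnar1 and Ifnar2, the chains of the type I receptor, had 8.97, 8.97 and 8.96 and 10.88 in each array. Ifngr1 and Ifngr2, the chains of the interferon-gamma receptor, had 9.76, 9.69 and 9.60 and 11.62, 11.57 and 11.51, both lowest in replicate 3. Stat2, the partner of Irf9 in ISGF3 and named after its values were seen, had 9.17 in each array to 2 decimals.

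The adaptors and kinases that activate Irf3, Irf5 and Irf7 were above background in 9 of 9 cases, and 0 spanned over 0.25, against the same 60.5% and 8.49%. Myd88, the adaptor above Irf5 and Irf7, had 9.18, 9.10 and 8.94 and was lowest in replicate 3. Ticam1, the adaptor of Tlr3, had 8.31, 8.41 and 8.47, lowest in replicate 1. Mavs, the adaptor of cytosolic RNA sensors, had 9.51, 9.58 and 9.58, and Sting1, the adaptor of cytosolic DNA sensing, had 10.04, 10.03 and 10.01. Of the 7 that differed between arrays, 5 were lowest in replicate 1 and 2 in replicate 3, against 24.5% and 37.8% of all differing genes. Such counts depend on the scaling of the arrays, as for the members, and were not repeated for the gene lists with the arrays rescaled.

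Genes of the interferon-gamma and Irf1 program were above background in 12 of 13 cases, against 60.5% of all genes. Of the 10 that differed between arrays, 7 were lowest in replicate 1 and 2 in replicate 3, against 24.5% and 37.8% of all differing genes. Replicate 1 was lowest and replicate 3 highest in 5 of them, against 15.4%. The list was chosen with earlier results of these data known, and no test was made. These counts too depend on the scaling and were not repeated with the arrays rescaled. Cd274, which encodes PD-L1, had 11.18, 11.44 and 11.80, and Nos2, the inducible nitric oxide synthase, had 11.47, 11.77 and 11.97. The guanylate-binding protein genes Gbp3 and Gbp4 had 9.99, 10.04 and 10.14 and 9.78, 9.92 and 10.19. The immunoproteasome genes Psmb8 and Psmb9 were nearly level, at 9.31, 9.31 and 9.30 and at 8.73, 8.80 and 8.80. The median span of the 12 was 0.089 log2 units.

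ISGF3 target genes were above background in 10 of 11 cases, against 60.5% of all genes. The stricter limit left 7 of the 11, against 39.5% of all genes, and Ifit1 was among those lost. The 10 were split between the arrays. Of the 7 that differed, 3 were lowest in replicate 1 (Ifit2, Ifit3 and Rsad2) and 3 in replicate 3, against the same 24.5% and 37.8%. Ifit1, an RNA-binding antiviral protein, had 6.65 in each array, Ifit2 had 8.56, 8.57 and 8.74, Ifit3 had 7.23, 7.25 and 7.40, and Oas1a, which makes the activator of RNase L, had 7.46, 7.46 and 7.34. Rsad2 (viperin, named after its values were seen) had 8.93, 9.02 and 9.37, the widest span of the list.

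Genes of the Irf8-dependent type 1 subset were above background in 8 of 10 cases, and those of Irf4-dependent cells in 10 of 11. The share over all genes was 60.5%. Clec9a, a receptor for dead cells, had 9.27, 9.38 and 9.70, with the same lowest and highest arrays as Irf8. Batf3, a partner of Irf8, had 8.28, 8.30 and 8.28, while the subset genes Xcr1 (4.99 in each) and Itgae (5.12, 5.12 and 5.09) were below background. Of the 7 differing genes of the Irf8 list 1 was lowest in replicate 1, against 24.5% of all differing genes. On the Irf4 side, Sirpa had 11.64, 11.64 and 11.61, the lectin gene Mgl2 11.74, 11.67 and 11.51, and Pdcd1lg2, which encodes PD-L2, 10.55, 10.56 and 10.53, whereas Cd209a was below background at 4.76 in each. Ccr7, the lymph node homing receptor, had 10.15, 10.50 and 9.74. Of the 8 differing genes of that list 6 were lowest in replicate 3, against 37.8% of all differing genes.

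**Figure D4:**
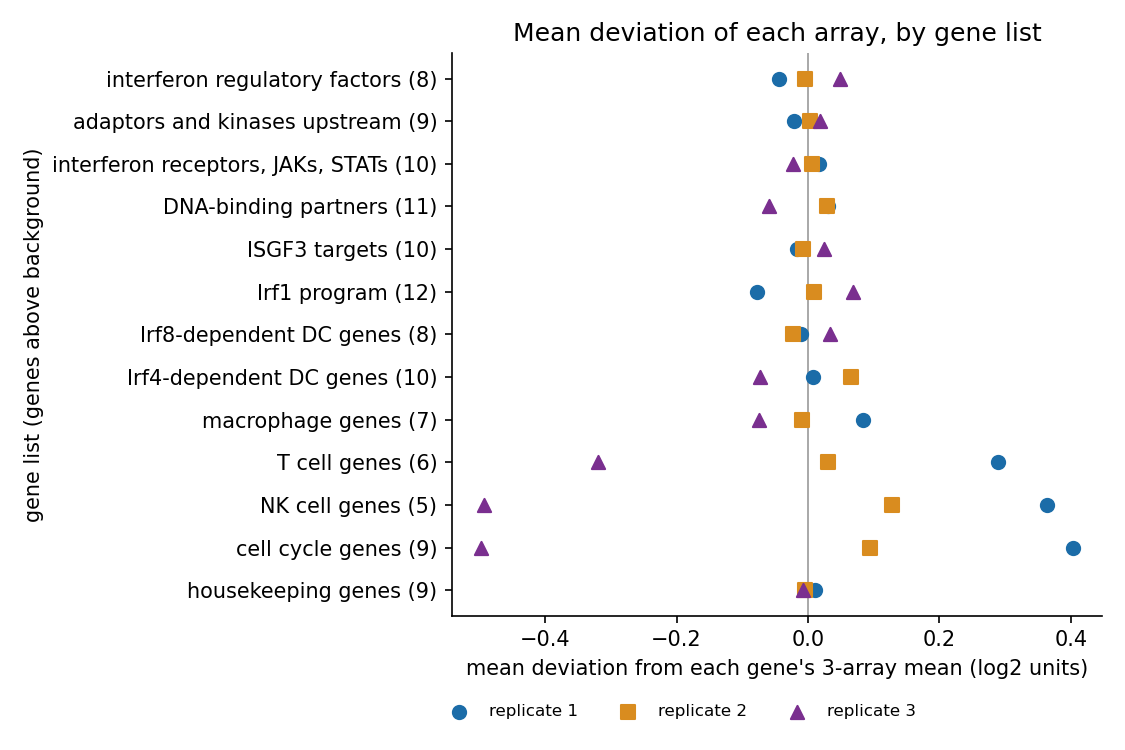
Mean deviation of each array from each gene's 3-array mean in log2 units (horizontal axis), averaged over the genes of a list above background (vertical axis, number in brackets). The interferon regulatory factors (-0.04, -0.01 and 0.05 in replicates 1, 2 and 3) and the Irf1 program (-0.08, 0.01 and 0.07) are highest in replicate 3, whereas cell cycle genes (0.40, 0.09 and -0.50) are lowest there.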

How the data were processed

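RNA of 3 BMDC samples (150 ng each) was labelled with biotin and measured on Affymetrix arrays, per the labels' protocols. Per the submitters' processing notes, the deposited log2 values are RMA summaries made by the authors; software, version and genome build are not given in the sources used here. Array medians were 5.91, 5.91 and 5.91, and no scanner intensities were used. Of 35556 probe sets, 21789 name 1 gene in the annotation, 1621 several and 12146 are not listed. Entrez identifiers of 21698 matched RefSeq, which changed 0 symbols. The 3 deposited values are identical in 46.5% of genes above background, and an SD of 0 there understates the error.

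Background limits, spans, deviations and motif matches were computed with Python 3.11.15, pandas 2.3.3 and numpy 2.4.6. The background call, the span count and the motif search were checked on simulated data, but deviations and closest patterns were not. The simulated shifts lay well above the span threshold and no tied values were simulated. That check therefore says little about spans near the threshold or about genes with identical values. No test was made, since the labels give 1 group. Members and gene lists were chosen with earlier results of these data known. Named are all members, the 3 closest patterns per member and the first 4 measured genes of each pathway list. Pathway list genes spanning over 0.5 log2 units are also named. From the marker lists a few genes were picked without such a rule. Others spanning over 0.5 log2 units, such as Cd3d, Cd8b1 and Eomes, enter only through list means and counts. Alternatives covered the limit, the probe set, the scaling, the threshold and each replicate.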

Additional observations from a re-analysis of the deposited data

How the results depend on the processing

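The count of 8 members above background held with the 99th percentile, and with the limit from genes of other tissues it was 7. With all probe sets averaged, which can change Irf1 alone, it was 8. The mean over arrays and leaving out each replicate in turn also gave 8. Those settings could not give fewer, since each member passed the limit in every array. The count of 2 members spanning over 0.25 log2 units held under both rescalings of the arrays, which moved them by at most 0.011. It was 1 with all probe sets averaged, since the other probe set of Irf1 is constant and narrows its span to 0.14, and it was 4 with a threshold of 0.1 (24.2% of genes above background) and 0 with one of 0.5 (2.61%). Leaving out 1 replicate gave 0 to 2. The count of members lowest in replicate 3 stayed at 1 under both rescalings and with probe sets averaged. Both rescalings raised replicate 3 relative to the other arrays, so they could lower this count but not increase it. Averaging could not change it, since the other probe set of Irf1 is constant. The count lowest in replicate 1, a comparison added after seeing the data, was 4 as deposited and 6 under either rescaling, because the shift gives Irf2 and Irf9, identical as deposited, a span of 0.018. The shift acts on all genes alike: 72.8% and 74.4% of the genes above background were then lowest in replicate 1, against 13.1% as deposited, so the 6 of 8 are near the share of genes in general. The counts of lowest arrays in the gene lists were made on the deposited values only. Of 32 alternative mean levels, 31 stayed within 1 SD of the deposited mean, which says little. Leaving out 1 of 3 arrays cannot move a mean by more than 1 SD. Averaging probe sets cannot change the 7 members with 1 probe set, and it gave Irf1 a mean of 8.18. No paired analysis was possible because all samples belong to 1 group. How far each value lies above background is known only against the probe sets used as limits.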

Other observations

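Genes of proteins that bind DNA with, or attach to, interferon regulatory factors were above background in 11 of 12 cases, against 60.5% of all genes. Spi1, which encodes PU.1, had 10.94, 10.98 and 10.98 in replicates 1, 2 and 3. The AP-1 family genes Batf and Jun had 6.96 and 9.80 in each array, and Batf3 had 8.28, 8.30 and 8.28. The exception, named after its values were seen, was Spib at 5.26 in each array, a relative of PU.1 found in B cells and plasmacytoid cells. Ets1, abundant in lymphocytes, had 7.47, 7.27 and 6.71 and was lowest in replicate 3, as the T cell and NK cell genes were. Among the members' own corepressor genes, named after their values were seen, Irf2bp1 had 6.92 in each array, Irf2bp2 9.05, 9.14 and 9.05, and Irf2bpl 7.35, 7.47 and 7.43. The plasmacytoid list gene Cox6a2, which spanned 0.57 log2 units, had 7.56, 7.47 and 6.99, with replicate 3 again the lowest.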
